A study of Rattus norvegicus with 36 samples.

Results

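The comparison sets 6 rats that had breathed crystalline silica for 12 weeks against 6 rats that had breathed air for the same 12 weeks. Both groups were taken by their labels and make up 12 of the 36 lung arrays of a rat inhalation study, whose other arrays hold a silica and an air group of 6 rats at 3 weeks and again at 6 weeks. All were male CDF Fisher 344 rats, 3 months old per the labels at every exposure time. The silica rats inhaled 15 mg/m3 for 6 hours a day on 5 days, which the labels do not put per week, and the air rats inhaled air during the same time. A single exposure level was used, in 1 strain and 1 sex. Total RNA of lung tissue was labelled from 375 ng and read on Illumina bead arrays, which report the brightness of a probe for each transcript. Each array is 1 rat with its own rat number. Every p-value below measures the spread between rats of a group, pooled over the groups of all 36 arrays. The labels give no chip, hybridisation day or cell count.

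Crystalline silica that reaches the alveoli is taken up by macrophages, in which the particles can damage lysosomes, and it is known for drawing neutrophils and monocytes into the airspaces. In rats long inhalation is also known for enlarged type II pneumocytes, the cells that make surfactant, and for scarring of the lung wall. The genes are described by role, from the signals that recruit leukocytes through secreted defence proteins, macrophages and oxidants to matrix, epithelium, vessels, lymphocytes and the clock.

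Levels are log2 intensities after background correction and quantile normalisation, and a level of 1 probe is never set against that of another. Of the probes, 50.2 to 53.1% were detected above background on the silica arrays and 50.3 to 52.2% on the air arrays. The defining lung genes were bright in every rat: Sftpc, a surfactant protein of type II pneumocytes, lay at 12.84, 12.98 and 13.42 in silica rats (lowest, median, highest) and at 12.64, 12.88 and 13.07 in air rats, and Ager of type I pneumocytes at 12.05, 12.18 and 12.26 in silica rats against 12.34, 12.40 and 12.43 in air rats. Of 15 tested markers of cardiac muscle none passed the test, but their mean level ranged from 5.00 to 6.55 in silica rats and from 5.10 to 7.24 in air rats. Detection of Myh6, the atrial myosin chain, was limited to 1 silica rat and 3 air rats, with values up to 9.33 in silica rats and 10.48 in air rats. The part of heart tissue in the results was not tested. An array of the silica group stood apart from the others. On the first principal component of all 36 arrays, which held 54.5% of the variance, silica replicate 3 lay at 15.1 and the other silica rats of 12 weeks between -14.7 and -8.10, while the 12 arrays of 6 weeks lay between 22.7 and 29.8. At 3 weeks, air replicate 5 lay at 8.72 and the other air rats between -14.9 and -14.6. The main counts of calls are given with and without silica replicate 3. Those of the difference between 12 and 3 weeks are also given without both arrays. Counts of gene lists and of genes without overlap are given with all arrays unless stated.

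Silica for 12 weeks changed 2350 of 9078 tested genes, 25.9%, in a limma fit over all arrays at a Benjamini-Hochberg adjusted p under 0.05. Of these, 1061 genes were higher in silica rats, 11.7% of the genes tested, and 1289 were lower, 14.2%. By size, 145 genes (1.6%) rose by at least 1.5-fold and 18 (0.198%) fell by as much, the second count being 10 without silica replicate 2. Without silica replicate 3 these counts were 143 and 14. The 6 silica rats lay all above the 6 air rats for 510 genes (5.62%) and all below them for 524 (5.77%), and 489 (5.39%) and 503 (5.54%) of the tested genes were both called and free of overlap. The median change of all tested genes was -0.02. Leaving out silica replicate 3 gave 1009 rises and 1083 falls, and 876 and 959 of them were also called with it. A fit on only the 12 arrays of 12 weeks gave 880 rises and 1049 falls. Higher genes made up 45.15% of the calls under quantile normalisation and 32.49% when arrays were instead scaled to their medians. Fold changes below are log2 differences, silica minus air, with the standard error of the fit (n = 6 rats a group). Adjusted p is limma's, over all 9078 genes. Counts of gene list members are to be read beside the shares of all tested genes, 11.7% higher and 14.2% lower. The medians of several lists shrank under another background step, as given at the end.

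**Figure D1:**
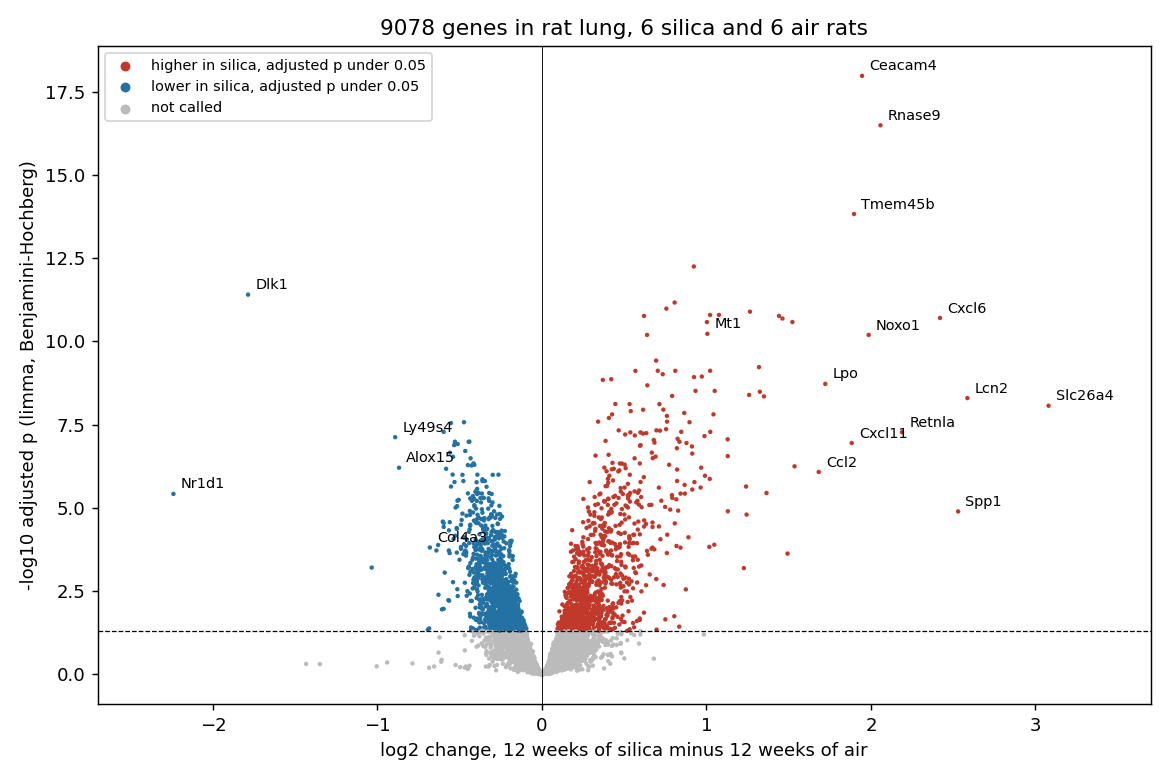
Each point is 1 of 9078 genes. The horizontal axis is the log2 change, 12 weeks of silica minus 12 weeks of air, and the vertical axis is -log10 of limma's adjusted p, with the dashed line at 0.05. Genes higher in silica (1061) reach much larger changes than genes lower in silica (1289), of which Nr1d1 and Dlk1 stand apart from the rest.

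Neutrophil-attracting chemokines of the CXC family were among the largest rises. The list of 8 tested members holds ligands, receptors and Pf4, which is also in the platelet list. Of these, 7 were higher in silica rats and none lower, with a median change of 0.64 against -0.02 for all genes. Cxcl6, a ligand for neutrophil receptors, lay at 6.02, 6.77 and 7.86 in silica rats and at 4.47, 4.54 and 4.62 in air rats, where no array detected it. With the background correction used here it was thus at least 4.88-fold higher (adjusted p = 1.97e-11), and the bounds below hold for that correction only. Cxcl1 lay at 11.25, 11.88 and 12.16 in silica rats against 9.94, 10.42 and 10.55 in air rats, a change of 1.54 ± 0.20 (adjusted p = 5.65e-07). Cxcl2, its close relative, lay at 6.58, 7.27 and 7.59 in silica rats against 5.67, 6.13 and 6.39 in air rats, a change of 1.13 ± 0.18 (adjusted p = 1.26e-05). For all 3 ligands the lowest silica rat was above the highest air rat. The platelet and macrophage chemokine Pf4 rose by 0.79 and Cxcl3 by 0.43, and the receptors Cxcr1 and Cxcr2 by 0.49 and 0.43, the receptors with overlap between the groups. Among 12 tested neutrophil markers 5 were higher and 1 lower, and their mean level ranged from 7.22 to 7.43 in silica rats and from 6.90 to 7.27 in air rats. The decoy receptor Il1r2, S100a8, Trem1, Ncf4 and Cxcr2 were the higher markers and the secreted protein Retnlg was the lower one (change -0.56 ± 0.15, adjusted p = 0.00614). Mpo, the enzyme of neutrophil granules, changed by -0.06 ± 0.06 (adjusted p = 0.479). In whole lung, more cells of a type and more RNA per cell cannot be told apart, and the part of neutrophil numbers in the chemokine changes was not tested.

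**Figure D2:**
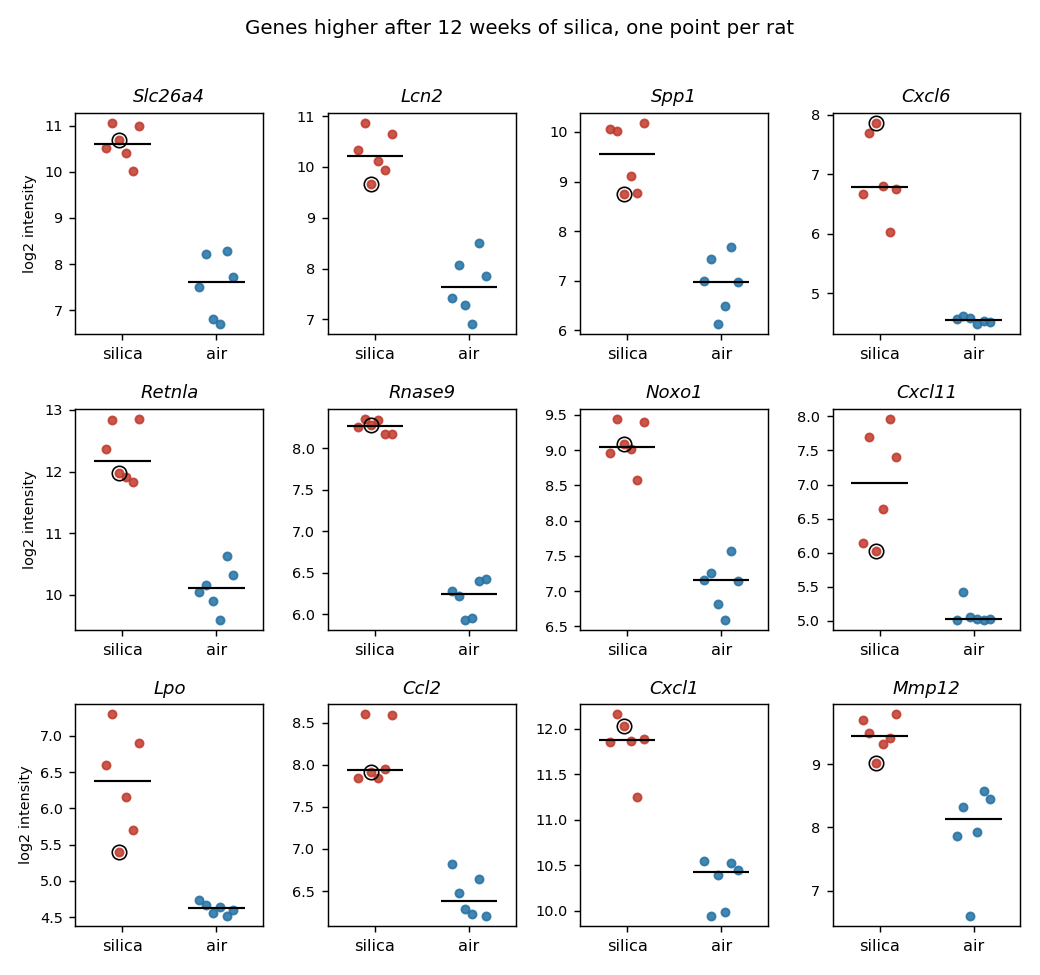
Log2 intensity of 12 genes in each rat after 12 weeks of silica (left, red) and of air (right, blue), with the median of 6 rats as a bar; the ringed point is silica replicate 3. The genes shown were taken from those without overlap, so in every panel the lowest silica rat is above the highest air rat. Cxcl6 and Lpo sit near the floor of detection in air.

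Several CXC chemokines and Lcn2, a protein that neutrophils and epithelium secrete to bind bacterial iron chelators, are known targets of the transcription factor NF-kB, so the stretches before their starts are shown. The sequences are the 250 bases upstream of each start in RefSeq's GRCr8 table, on the gene's own strand; they are Cxcl1 at chr14:17479322-17479571 (minus), Cxcl2 at chr14:17467256-17467505 (minus), Cxcl6 at chr14:17596418-17596667 (minus), Cxcl10 at chr14:15988816-15989065 (plus), Cxcl11 at chr14:15973478-15973727 (plus) and Lcn2 at chr3:36081781-36082030 (minus). Capitals mark matches to the 10-base NF-kB consensus on either strand, overlapping matches joined.
Cxcl1: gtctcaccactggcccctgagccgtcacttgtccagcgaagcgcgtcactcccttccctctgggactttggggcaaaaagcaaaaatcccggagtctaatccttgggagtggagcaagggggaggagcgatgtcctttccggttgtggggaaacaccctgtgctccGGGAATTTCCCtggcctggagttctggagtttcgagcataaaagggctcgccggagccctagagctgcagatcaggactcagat
Cxcl2: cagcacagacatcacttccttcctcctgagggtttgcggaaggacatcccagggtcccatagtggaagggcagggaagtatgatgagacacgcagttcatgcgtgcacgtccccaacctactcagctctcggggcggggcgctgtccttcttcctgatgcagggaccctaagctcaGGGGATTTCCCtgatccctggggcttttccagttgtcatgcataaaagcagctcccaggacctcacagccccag
Cxcl6: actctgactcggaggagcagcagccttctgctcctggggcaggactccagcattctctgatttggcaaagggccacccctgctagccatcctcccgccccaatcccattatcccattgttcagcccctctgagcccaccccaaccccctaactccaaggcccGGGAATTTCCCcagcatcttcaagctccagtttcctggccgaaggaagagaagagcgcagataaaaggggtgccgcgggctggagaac
Cxcl10: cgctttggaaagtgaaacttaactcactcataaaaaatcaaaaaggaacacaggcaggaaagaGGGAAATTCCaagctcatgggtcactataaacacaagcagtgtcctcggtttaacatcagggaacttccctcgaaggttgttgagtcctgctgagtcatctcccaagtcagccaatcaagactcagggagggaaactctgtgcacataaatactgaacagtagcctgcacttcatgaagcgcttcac
Cxcl11: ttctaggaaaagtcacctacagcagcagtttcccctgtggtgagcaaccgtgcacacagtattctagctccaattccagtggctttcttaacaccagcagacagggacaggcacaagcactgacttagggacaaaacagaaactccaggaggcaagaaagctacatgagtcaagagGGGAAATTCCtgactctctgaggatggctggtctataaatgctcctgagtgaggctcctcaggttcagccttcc
Lcn2: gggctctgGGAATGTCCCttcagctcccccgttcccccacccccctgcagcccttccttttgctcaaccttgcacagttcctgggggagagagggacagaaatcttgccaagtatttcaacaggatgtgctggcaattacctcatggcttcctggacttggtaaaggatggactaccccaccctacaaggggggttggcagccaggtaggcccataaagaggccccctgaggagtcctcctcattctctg
Cxcl1, Cxcl2 and Cxcl6 each held 1 run of 11 bases that matches on both strands, starting 84, 74 and 88 bases before the start. Cxcl11, Cxcl10 and Lcn2 each held 1 match of 10 bases, starting 74, 187 and 242 bases before the start. A match was held by 3.54% of all 33469 promoters of RefSeq's table and by 4.19% of the 7873 promoters of tested genes. Among the 25 genes with the largest rises without overlap, 21 had a promoter in the table and 5 of these, 23.81%, held a match (Cxadrl1, Cxcl1, Cxcl11, Cxcl6 and Lcn2). In the wider set of genes higher by at least 1.5-fold, 13 of 116 promoters held a match, a smaller share of 11.21%. Of the 20 largest falls, 13 had promoters in the table, 15 in all, and 0 held a match. The 6 printed promoters were chosen after the matches were seen, and a match says nothing about binding in these lungs.

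The other chemokines included 14 higher and 1 lower of 29 tested members and receptors, with a median of 0.29. Ccl2, the main attractant of monocytes, lay at 7.84, 7.93 and 8.60 in silica rats and at 6.21, 6.38 and 6.82 in air rats, a change of 1.68 ± 0.23 (adjusted p = 8.35e-07). Its relative Ccl7 lay at 6.36, 6.83 and 7.59 in silica rats against 5.18, 5.55 and 6.09 in air rats, a change of 1.37 ± 0.20 (adjusted p = 3.58e-06). Neither overlapped between the groups. Cxcl9, Cxcl10 and Cxcl11, which attract activated lymphocytes, all rose. Cxcl11 lay at 6.02, 7.03 and 7.97 in silica rats, a wide spread, and at 5.01, 5.03 and 5.42 in air rats, a change of 1.88 ± 0.23 (adjusted p = 1.13e-07). Cxcl9 rose by 0.87 without overlap, while Cxcl10 lay at 5.81, 7.02 and 7.54 in silica rats against 5.74, 5.77 and 5.91 in air rats, a change of 1.05 ± 0.20 (adjusted p = 1.28e-04). The lowest silica rat for Cxcl10 was inside the range of the air rats. Cx3cl1, the membrane-bound chemokine of epithelium and endothelium, rose by 1.05, the macrophage ligand Ccl3 by 0.81, the monocyte ligand Ccl12 by 0.87 and the receptor Ccr1 by 0.40. Ccl17 and Ccl22, ligands of type 2 T cells, rose by 0.82 and 0.84. Ccl5, made by T and natural killer cells, was the only lower member, at 12.09, 12.26 and 12.38 in silica rats against 12.44, 12.60 and 13.01 in air rats without overlap (change -0.39 ± 0.09, adjusted p = 0.00101). Ccl20, an epithelial chemokine for dendritic cells and lymphocytes, changed by 0.98 ± 0.40 and missed the threshold (adjusted p = 0.064).

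Of 29 tested genes of IL-1, TNF and NF-kB signalling, 18 were higher and 1 lower, with a median of 0.25. Il1r2, which binds IL-1 without signalling, lay at 7.98, 8.49 and 8.81 in silica rats and 6.90, 7.04 and 7.45 in air rats, the largest change of the list at 1.35 ± 0.14 (adjusted p = 4.48e-09). The IL-1 antagonist Il1rn rose by 0.53, Il1b itself by 0.48, Il18 by 0.53 and the inflammasome sensor Nlrp3 by 0.34. Il1b overlapped between the groups, at 10.06, 10.33 and 10.61 in silica rats against 9.58, 9.72 and 10.40 in air rats. The pattern receptors Cd14 and Tlr2 rose by 0.68 and 0.43, the survival protein Birc3 by 0.51, and the growth factor of macrophages Csf2 by 0.35. Tnf was above background in 2 silica rats and no air rat, with a change of 0.03 ± 0.06 (adjusted p = 0.766). Il33, the alarmin of type II pneumocytes and endothelium, was detected in 2 silica rats and 3 air rats, and its fitted value fell by 0.26.

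Secreted defence proteins of the airway lining and of the acute phase included 13 higher and 1 lower of 26 tested members, median 0.29. Lcn2 lay at 9.67, 10.22 and 10.87 in silica rats and at 6.90, 7.64 and 8.50 in air rats, a change of 2.59 ± 0.27 or 6.01-fold (adjusted p = 5.04e-09). Spp1, osteopontin, an adhesive phosphoprotein of macrophages and wound tissue, lay at 8.74, 9.56 and 10.18 in silica rats against 6.12, 6.98 and 7.69 in air rats, a change of 2.53 ± 0.40 or 5.78-fold (adjusted p = 1.28e-05). Every silica rat was above every air rat for both. Lpo, lactoperoxidase, which makes the antimicrobial hypothiocyanite of airway fluid, lay at 5.40, 6.38 and 7.29 in silica rats and at 4.52, 4.62 and 4.73 in air rats, where it was detected on none of the arrays, and was at least 3.16-fold higher (adjusted p = 1.89e-09). The acute phase protein Orm1 was likewise undetected in air rats (4.92, 5.68 and 6.36 in silica rats against 4.60, 4.67 and 4.79 in air rats) and at least 1.92-fold higher (adjusted p = 6.19e-07). For these genes the silica rats spread widely, and silica replicate 3 was the lowest silica rat for Lcn2, Spp1, Lpo and Orm1. Chi3l1, a chitinase-like protein of macrophages, rose by 1.32, haptoglobin Hp by 0.99, the calcium-binding S100a8 by 0.96, the protease inhibitor Slpi by 0.89 and the carrier of secretory antibodies Pigr by 0.88. Chit1, a true chitinase, was the lower member, at 7.74, 8.05 and 8.10 in silica rats against 8.14, 8.40 and 8.55 in air rats (change -0.40 ± 0.08, adjusted p = 2.54e-04).

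Most complement genes rose, 11 higher and 2 lower of 17 tested, median 0.48. The 3 chains of C1q, which start the classical pathway and are made by macrophages, rose together: C1qa by 0.69, C1qb by 0.65 and C1qc by 0.67, none with overlap. C2, factor B (Cfb) and C1s rose by 0.60, 0.54 and 0.56. The inhibitors moved as well: factor I (Cfi) lay at 8.55, 8.91 and 9.38 in silica rats against 7.48, 7.74 and 7.98 in air rats (change 1.24 ± 0.20, adjusted p = 1.59e-05), and C4bpa, an inhibitor of the classical pathway that stood outside the list, at 10.42, 10.56 and 10.98 in silica rats against 8.82, 9.09 and 9.53 in air rats (change 1.52 ± 0.12, adjusted p = 2.62e-11). Properdin (Cfp), which stabilises the alternative pathway, fell by 0.23.

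Genes of antigen presentation on MHC class II included 10 higher and 1 lower of 15 tested, median 0.48. The class II chains RT1-Db1, RT1-Ba and RT1-Da rose by 0.82, 0.61 and 0.37, and RT1-DMa and RT1-DMb, which load peptide, by 0.60 and 0.54. RT1-Db1 lay at 11.85, 11.93 and 12.26 in silica rats and 10.95, 11.21 and 11.37 in air rats (adjusted p = 7.06e-07), without overlap. The master regulator Ciita rose by 0.37 and the reductase Ifi30 by 0.64. The invariant chain Cd74 lay at 11.49, 12.09 and 12.17 in silica rats against 11.38, 11.57 and 11.63 in air rats, a change of 0.48 ± 0.08 (adjusted p = 6.08e-05); silica replicate 3 was the lowest silica rat there, and the groups did not overlap without it. Cd40, the co-stimulatory receptor, fell by 0.19. RT1 genes have near-identical relatives, and a probe may read several of them.

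Marker genes of monocytes, interstitial macrophages and dendritic cells included 10 higher and 0 lower of 15 tested, median 0.41 (0.38 with Xcr1 at its bound), and their mean level ranged from 7.50 to 7.87 in silica rats and from 7.24 to 7.31 in air rats without overlap. Ly6c rose by 0.76 and the lectin Clec10a by 0.53. Xcr1, the receptor of cross-presenting dendritic cells, was detected in all silica rats and in no air rat and was at least 1.30-fold higher (adjusted p = 2.17e-04). Of 17 tested markers of alveolar macrophages, 8 were higher and 1 lower, median 0.23, and 5 were higher when arrays were scaled to their medians. Trem2, the lipid receptor of macrophages, lay at 11.96, 12.09 and 12.19 in silica rats against 10.89, 11.40 and 11.64 in air rats (change 0.72 ± 0.13, adjusted p = 8.75e-05), and Gpnmb, a glycoprotein of lipid-laden macrophages, and the mannose receptor Mrc1 rose by 0.67 and 0.67, all 3 without overlap. Fabp4 and Apoe, lipid carriers of the same list, changed by 0.01 ± 0.17 (adjusted p = 0.978) and 0.05 ± 0.09 (adjusted p = 0.695). Car4 fell by 0.43; it is also a marker of lung capillaries. Retnla, a secreted product of alternatively activated macrophages and of epithelium in rodents, lay at 11.83, 12.17 and 12.86 in silica rats against 9.59, 10.11 and 10.63 in air rats, a change of 2.19 ± 0.25 or 4.56-fold (adjusted p = 5.33e-08). Arg1, the arginase of such macrophages, rose by 0.87.

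The lysosome list held 22 higher and 1 lower of 39 tested genes, median 0.25, and 14 higher when arrays were scaled to their medians. The proton pump subunit Atp6v0d2 lay at 7.94, 8.07 and 8.35 in silica rats and 6.19, 6.95 and 7.27 in air rats, a change of 1.24 ± 0.18 (adjusted p = 2.29e-06). Cathepsin K (Ctsk), which cuts collagen, lay at 10.07, 10.45 and 10.78 in silica rats against 8.74, 9.46 and 9.90 in air rats, a change of 1.02 ± 0.19 (adjusted p = 1.48e-04), again without overlap. Cathepsins D and S rose by 0.60 (Ctsd) and 0.56 (Ctss), legumain (Lgmn) by 0.54, the lipid activators Gm2a and Psap by 0.48 and 0.44, and the membrane protein Scarb2 by 0.45. Cathepsin L (Ctsl) was the lower member and fell by 0.20. Rab7b, a small GTPase of late endosomes, stood outside the list and rose by 1.32.

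Among 17 tested genes of NADPH oxidases and nitric oxide synthesis 9 were higher and 3 lower, median 0.21. Noxo1, the organiser subunit of the Nox1 oxidase, lay at 8.57, 9.05 and 9.45 in silica rats and 6.59, 7.15 and 7.58 in air rats, a change of 1.99 ± 0.17 or 3.96-fold (adjusted p = 6.38e-11). Subunits of the phagocyte oxidase also rose: Cybb by 0.63, Cyba by 0.51 and Ncf4 by 0.58. Gch1, which makes the cofactor of nitric oxide synthases, rose by 0.91 and the arginine transporter Slc7a2 by 0.58. The endothelial synthase Nos3 fell, at 7.64, 7.76 and 7.87 in silica rats against 8.03, 8.23 and 8.52 in air rats (change -0.49 ± 0.09, adjusted p = 1.49e-04), and Ass1, which remakes arginine, fell by 0.40. Of 32 tested antioxidant genes 12 were higher and 4 lower, median 0.09, and 7 were higher with a median of 0.03 when arrays were scaled to their medians. Mitochondrial superoxide dismutase (Sod2) lay at 10.28, 10.68 and 11.01 in silica rats against 9.31, 9.38 and 9.67 in air rats, a change of 1.26 ± 0.10 (adjusted p = 1.28e-11); it is also a target of NF-kB. Metallothionein Mt1 lay at 10.54, 10.76 and 10.996 in silica rats against 9.60, 9.76 and 9.97 in air rats (change 1.01 ± 0.08, adjusted p = 5.90e-11) and haem oxygenase Hmox1 rose by 0.82. Of other NRF2 targets, Nqo1 rose by 0.16 (adjusted p = 0.0177), Gclc changed by 0.08 ± 0.05 (adjusted p = 0.306), and Gstp1 fell by 0.25. The Nqo1 call was lost when arrays were scaled to their medians (adjusted p = 0.379), with only the 12 arrays of 12 weeks (adjusted p = 0.0873), without air replicate 6 (adjusted p = 0.0537) and without silica replicate 5 (adjusted p = 0.0514). The Gstp1 call was lost with only those 12 arrays (adjusted p = 0.0636), without air replicate 3 (adjusted p = 0.0739) and without air replicate 4 (adjusted p = 0.0508).

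The largest rise of all named genes was a transporter. Slc26a4, pendrin, which moves anions such as chloride, bicarbonate and thiocyanate across airway epithelium, lay at 10.02, 10.60 and 11.06 in silica rats and 6.69, 7.61 and 8.27 in air rats, a change of 3.08 ± 0.32 or 8.46-fold (adjusted p = 8.55e-09). The list of ion transport and airway secretion held 10 higher and 4 lower of 23 tested genes, median 0.13, which was 0.07 without silica replicate 3. The amino acid transporter Slc7a7 rose by 1.02, the lactate transporter Slc16a3 by 0.81 and Slc6a20a by 0.58, and the water channels Aqp5 and Aqp1 fell by 0.39 and 0.29. The dicarboxylate transporter Slc13a2, outside the list, rose by 1.26. Several other genes rose without overlap. Rnase9, of the ribonuclease A family, lay at 8.17, 8.27 and 8.35 in silica rats against 5.93, 6.25 and 6.42 in air rats (change 2.06 ± 0.10, adjusted p = 3.22e-17). Ceacam4, of the carcinoembryonic antigen family, lay at 9.46, 9.75 and 9.94 in silica rats against 7.63, 7.78 and 7.91 in air rats (change 1.95 ± 0.08, adjusted p = 1.05e-18), the lowest p of all genes tested. The membrane protein Tmem45b lay at 6.74, 7.43 and 7.49 in silica rats against 5.17, 5.33 and 5.51 in air rats (change 1.90 ± 0.11). Itih1, an inhibitor chain that binds hyaluronan, rose by 1.46 and Cxadrl1 by 1.44.

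Of 43 tested genes of the interstitial matrix 3 were higher and 11 lower, median -0.07, which was -0.13 when arrays were scaled to their medians. Without silica replicate 3, 9 were lower. Col1a1, the main chain of type I collagen, lay at 8.01, 8.29 and 8.58 in silica rats and 8.05, 8.22 and 8.41 in air rats, a change of 0.06 ± 0.10 (adjusted p = 0.684). Col3a1 changed by -0.07 ± 0.10 (adjusted p = 0.67), Fn1, fibronectin, by -0.02 ± 0.08 (adjusted p = 0.862) and elastin (Eln) by 0.04 ± 0.12 (adjusted p = 0.828). The higher members were Spp1, the collagen-binding Fmod (rose by 0.48) and Cthrc1 of activated fibroblasts (rose by 0.35). The fibril protein Mfap5, the matricellular Postn and Sparc, the collagen Col6a1 and the growth-factor-binding Ccn2 fell by 0.41, 0.29, 0.23, 0.27 and 0.24; the Ccn2 call was lost without air replicate 3 (adjusted p = 0.0520). Of 34 tested genes of TGF-beta and growth factor signalling 1 was higher and 4 were lower, median -0.02. Without silica replicate 3, 6 were lower and the median was -0.04. Tgfb1 lay at 9.26, 9.31 and 9.52 in silica rats against 8.74, 9.14 and 9.77 in air rats (change 0.21 ± 0.12, adjusted p = 0.19), with the silica rats inside the range of the air rats. Ereg, a ligand of the EGF receptor, was the higher one and rose by 0.56, and Igfbpl1 fell by 0.52.

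Several proteases that cut matrix rose. Of 29 tested proteases and inhibitors 8 were higher and 4 lower, median 0.07, and without silica replicate 3 the lower count was 1 and the median 0.04. Mmp12, the elastase of macrophages, lay at 9.01, 9.44 and 9.78 in silica rats and 6.60, 8.13 and 8.57 in air rats, a change of 1.49 ± 0.29 (adjusted p = 2.36e-04). Mmp7, a protease of injured epithelium, was undetected in air rats (5.10, 5.62 and 6.52 in silica rats against 4.43, 4.62 and 4.67 in air rats) and at least 2.06-fold higher in silica rats (adjusted p = 8.72e-08). The membrane-bound Mmp14 rose by 0.53 and the inhibitors Serpine2 and Timp1 by 0.57 and 0.33. Of 8 tested basement membrane genes 4 were lower and 1 was higher, median -0.19. Col4a3, a collagen chain of the alveolar basement membrane, lay between 5.98 and 6.71 in silica rats and between 6.83 and 7.14 in air rats (change -0.68 ± 0.13, adjusted p = 1.55e-04). Agrn, Lamb2 and Col4a1 fell by 0.40, 0.31 and 0.26, all 4 without overlap, and Lamc1 rose by 0.25. The Lamc1 call was lost under 9 of the 23 alternative settings (other processing, or an array left out), with adjusted p up to 0.118 (without air replicate 3), and no basement membrane gene was higher when arrays were scaled to their medians.

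Markers of the epithelial cell types of the alveolus gave opposite counts. Of 14 tested markers of type II pneumocytes 9 were higher and 1 lower, median 0.29, and of 20 markers of type I pneumocytes 0 were higher and 9 lower, median -0.14. The type II list counts Cd74 (rose by 0.48), described above with MHC class II. It also names Lyz2, which the monocyte and macrophage list names too, and shares Rtkn2 and Cldn18 with the type I list. The part of other cells in these counts was not tested. The mean level of the type II markers had a median of 11.08 in silica rats and 10.78 in air rats, and the groups did not overlap. For the type I markers the mean level ranged from 8.93 to 9.27 in silica rats and from 9.14 to 9.22 in air rats, with overlap. With only the 12 arrays of 12 weeks, 6 type I markers were lower. Sftpd, the surfactant protein that binds microbes, lay at 9.27, 9.54 and 10.02 in silica rats and 8.59, 8.83 and 8.99 in air rats (change 0.76 ± 0.14, adjusted p = 6.39e-05). The lamellar body protein Lamp3 lay at 11.75, 11.81 and 12.14 in silica rats against 11.13, 11.37 and 11.62 in air rats (change 0.52 ± 0.08, adjusted p = 9.05e-06). Both were free of overlap, as were Napsa, a protease that processes surfactant protein B (rose by 0.29), and the mucin Muc1 (rose by 0.56). The transcription factor Cebpa rose by 0.68. Nkx2-1, which drives surfactant genes, rose by 0.41 with silica replicate 3 and by 0.32 without it (adjusted p = 0.0477). The hydrophobic surfactant proteins did not pass: Sftpb changed by -0.04 ± 0.05 (adjusted p = 0.658) and Sftpc by 0.16 ± 0.09 (adjusted p = 0.192). The wider list of surfactant proteins and lipid secretion held 12 higher and 0 lower of 18 tested genes, median 0.25, with the phospholipase Pla2g1b (rose by 0.53) and cathepsin H, Ctsh (rose by 0.50), among the larger rises.

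Among type I markers, Clic5, a chloride channel protein, lay at 11.36, 11.64 and 11.69 in silica rats and 11.85, 12.02 and 12.14 in air rats (change -0.41 ± 0.05, adjusted p = 5.07e-07). The water channel Aqp5 lay at 10.78, 10.79 and 10.97 in silica rats against 11.04, 11.19 and 11.39 in air rats (change -0.39 ± 0.05, adjusted p = 1.01e-06), and Ager changed by -0.23 ± 0.04 (adjusted p = 4.98e-05). In each of the 3 every silica rat was below every air rat. Pdpn, podoplanin, changed by -0.13 ± 0.07 and did not pass (adjusted p = 0.166). Of 12 tested club cell markers 2 were higher and 2 lower, and of 15 ciliated cell markers 1 and 1. Over all tested genes 11.7% were higher and 14.2% lower, so neither list stood out by its counts. Their median changes were -0.255 and -0.276, and the mean level of each list overlapped between the groups. Without silica replicate 3, 3 club cell markers were lower. Scgb1a1, the main club cell secretion, changed by -0.09 ± 0.04 (adjusted p = 0.0605), while Cyp4b1 and Aldh1a1, enzymes of club cells, fell by 0.41 and 0.27. The flavin oxygenase Fmo2 fell by 0.50. The list of xenobiotic and aldehyde metabolism held 4 higher and 5 lower of 25.

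**Figure D3:**
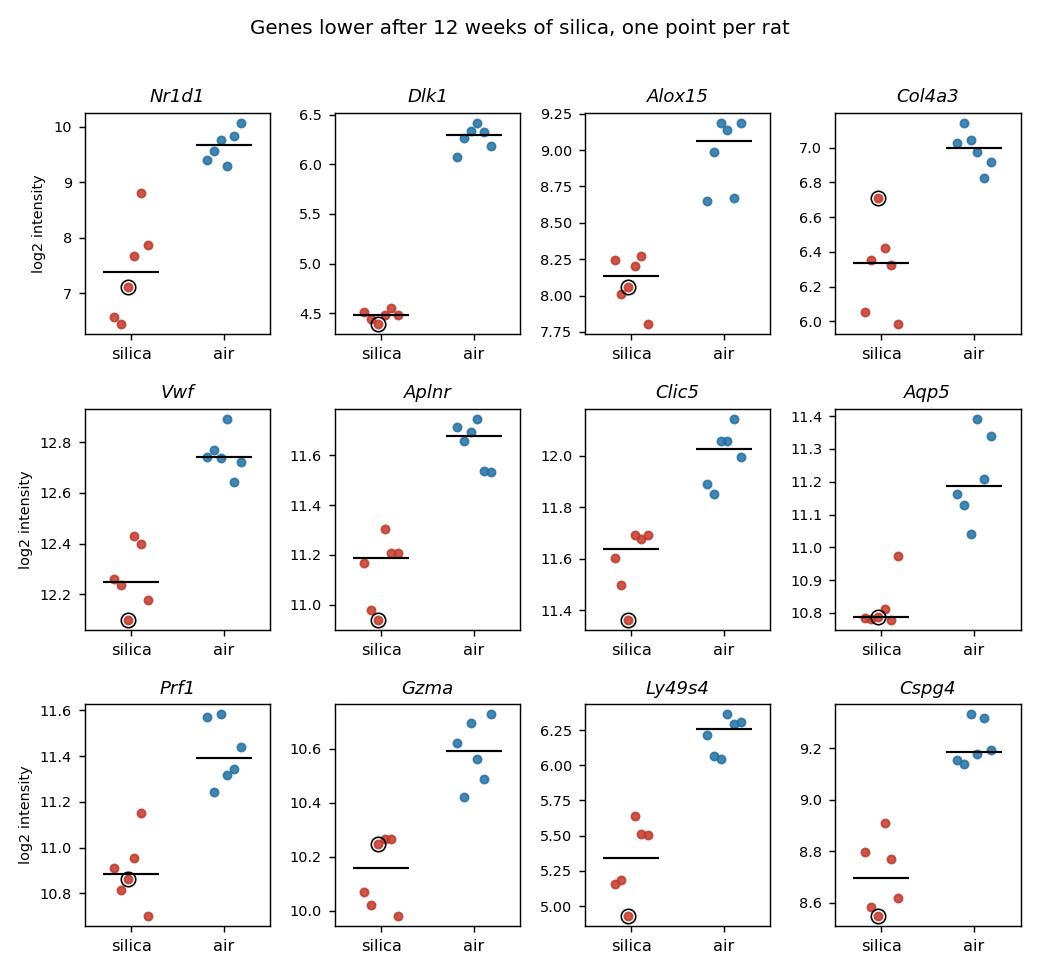
Log2 intensity of 12 genes in each rat after 12 weeks of silica (left, red) and of air (right, blue), with the median of 6 rats as a bar; the ringed point is silica replicate 3. The genes shown are among those without overlap, so in every panel the highest silica rat is below the lowest air rat. Dlk1 sits at the floor of detection in silica.

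Many genes of the vessel wall fell. Of 26 tested endothelial markers 15 were lower and 3 higher, median -0.28, and their mean level ranged from 9.13 to 9.21 in silica rats and from 9.25 to 9.36 in air rats without overlap. Vwf, von Willebrand factor, lay at 12.10, 12.25 and 12.43 in silica rats and 12.64, 12.74 and 12.89 in air rats (change -0.48 ± 0.07, adjusted p = 1.02e-06). Aplnr, the apelin receptor, lay at 10.94, 11.19 and 11.30 in silica rats against 11.53, 11.68 and 11.75 in air rats (change -0.51 ± 0.06, adjusted p = 1.21e-07). Thrombomodulin (Thbd), which restrains clotting, lay at 11.14, 11.55 and 11.62 in silica rats against 11.81, 11.90 and 12.04 in air rats (change -0.41 ± 0.06, adjusted p = 5.26e-06). In these 3 genes the groups were apart. Egfl7, Emcn, Ramp2 and the junction protein Cldn5 fell by 0.46, 0.33, 0.36 and 0.28, and the capillary lipase anchor Gpihbp1 by 0.59. The exceptions were the leukocyte-catching adhesion molecules P-selectin (Selp, rose by 0.84) and E-selectin (Sele, rose by 0.28), and the receptor component Ramp3 (rose by 0.52). Lyve1, which marks lymphatic endothelium and some macrophages, fell by 0.46, the only called gene of 3 lymphatic markers tested. Of 14 tested genes of smooth muscle and myofibroblasts 0 were higher and 5 lower, median -0.09, which was -0.15 without silica replicate 3. The pericyte proteoglycan Cspg4 lay at 8.55, 8.69 and 8.91 in silica rats against 9.14, 9.19 and 9.33 in air rats (change -0.51 ± 0.08, adjusted p = 6.10e-06), and Smtn and Cnn1, contractile proteins, fell by 0.37 and 0.38. Desmin (Des) fell by 0.37 and by 0.34 without silica replicate 3, where it did not pass (adjusted p = 0.0615).

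Genes of cytotoxic lymphocytes fell too. Of 17 tested markers of natural killer and cytotoxic cells 9 were lower and 1 higher, median -0.31, with a mean level of 7.19 to 7.43 in silica rats and 7.43 to 7.72 in air rats. The counts stayed the same when all probes served to estimate the background, but the median shrank to -0.05. With the values as processed by the authors it was -0.10, again with the same counts. Prf1, perforin, lay at 10.70, 10.88 and 11.15 in silica rats and 11.24, 11.39 and 11.58 in air rats (change -0.52 ± 0.09, adjusted p = 4.30e-05). The granule proteases Gzma and Gzmb fell by 0.44 and 0.41, both without overlap, the receptor chain Klrd1 by 0.35 and the granule protein Nkg7 by 0.31. The Ly49-type receptor gene Ly49s4, outside the list, lay at 4.93, 5.34 and 5.64 in silica rats against 6.04, 6.26 and 6.36 in air rats (change -0.89 ± 0.10, adjusted p = 7.53e-08); the Ly49 genes of rats are a large family of close copies, which a probe may not separate. Klrb1b, an inhibitory receptor of natural killer cells, was the 1 higher member (rose by 0.42). Among 17 tested T cell genes Cd8a, the co-receptor of cytotoxic T cells, was the 1 called gene and lay at 9.05, 9.23 and 9.30 in silica rats against 9.43, 9.58 and 9.92 in air rats (change -0.40 ± 0.09, adjusted p = 6.05e-04). The T cell receptor chain Cd3e changed by 0.05 ± 0.12 (adjusted p = 0.803). Of 11 tested B and plasma cell genes 1 was higher and 0 lower. Of 11 markers of mast cells, eosinophils and basophils 1 was higher and 1 lower, the lower one being the eosinophil ribonuclease Rnase3 (fell by 0.51).

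Many proliferation genes rose: 19 were higher and 3 lower of 43 tested genes of the cell cycle and DNA replication, median 0.20, and 26 higher and 2 lower without silica replicate 3. The higher count was 15 when arrays were scaled to their medians and 14 with only the 12 arrays of 12 weeks. It was 17 with background from all probes (median 0.04) and 17 in the authors' processed values (median 0.08). Rrm2, which makes deoxyribonucleotides, lay at 6.998, 7.17 and 7.26 in silica rats and 6.18, 6.37 and 6.64 in air rats (change 0.77 ± 0.10, adjusted p = 5.07e-07). The mitotic genes Cks2, Ccnb2 and Cdk1 rose by 0.75, 0.59 and 0.48, all without overlap, while Ccnd1, cyclin D1, fell by 0.31. Cholesterol synthesis and uptake held 8 higher and 0 lower of 19 tested genes, median 0.20, led by Mvd of the synthesis pathway (rose by 0.41) and the exporter Abcg1 (rose by 0.37); 3 passed when arrays were scaled to their medians. Oxidative phosphorylation held 3 higher and 0 lower of 37, median 0.00, and none passed with median scaling. Interferon-response genes held 6 higher and 3 lower of 35, median 0.03, and 2 higher and 4 lower with a median of 0.00 without silica replicate 3. Igtp and Usp18, both induced by interferon, changed by 0.52 ± 0.20 and 0.41 ± 0.14 with that array, and without it by 0.28 and 0.27, where neither passed (adjusted p = 0.222 and 0.122). Their calls were lost under 17 and 9 of the 23 alternative settings. Of 16 tested p53 targets and apoptosis genes 3 were higher and 4 lower, with the survival protein Bcl2a1 and the stress gene Gadd45g rising by 0.76 and 0.71 and Gadd45b and the death receptor Fas falling by 0.38 and 0.33.

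**Figure D4:**
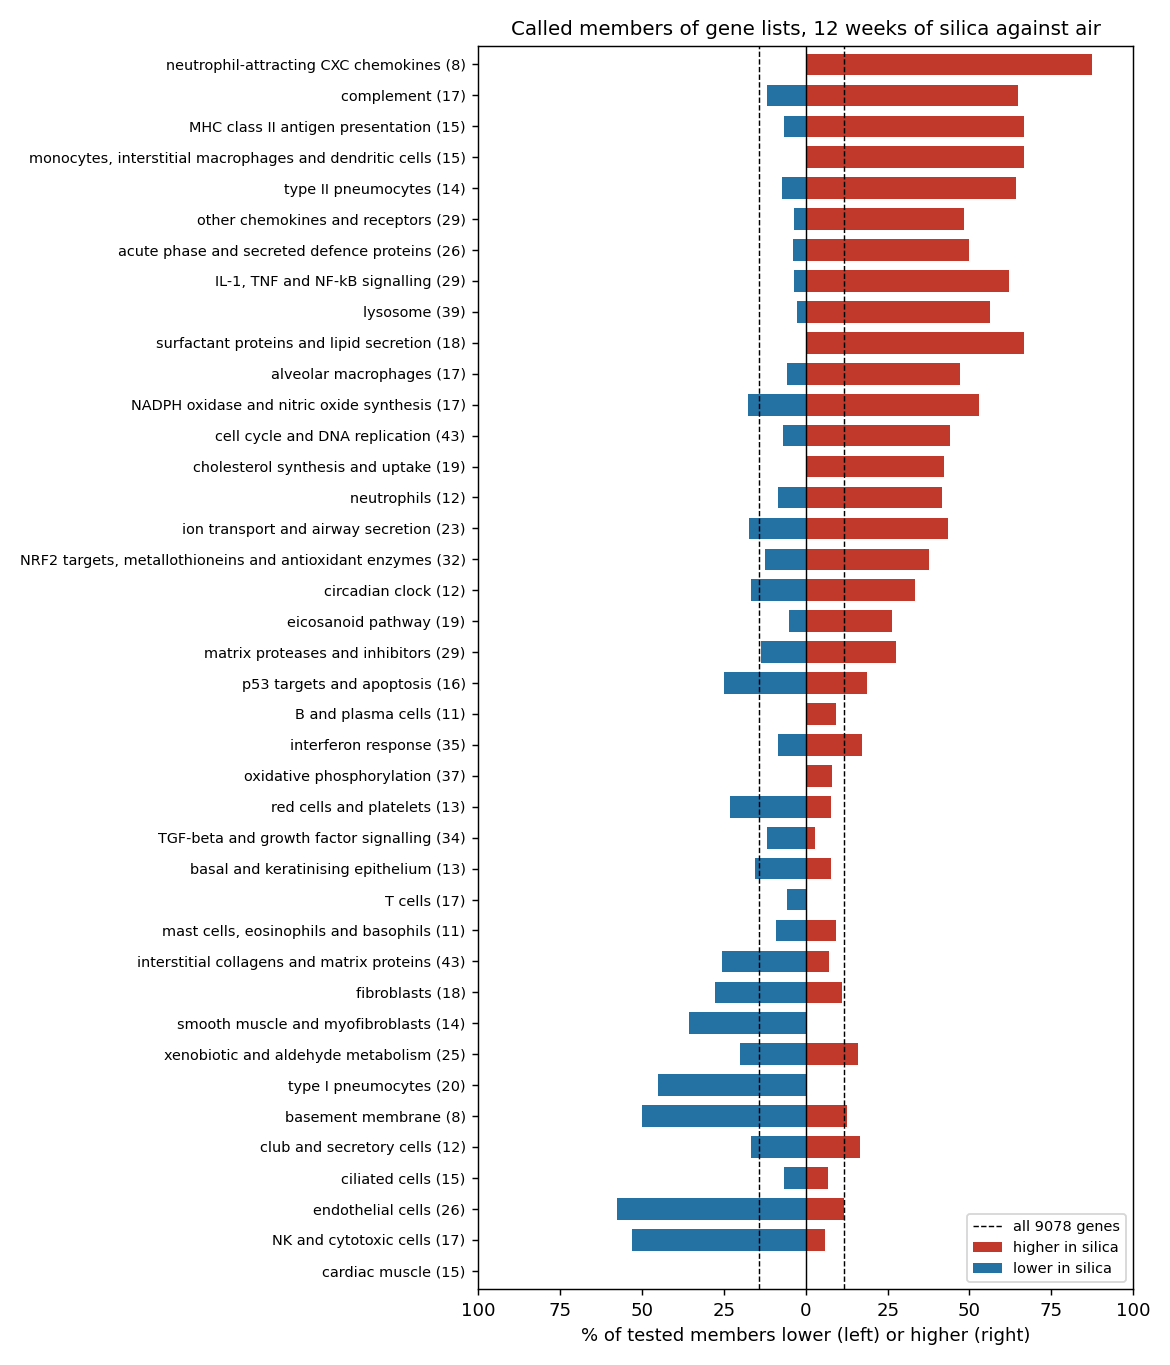
For each gene list with at least 8 tested members (number in brackets), the bars give the percent of members that were lower (left, blue) or higher (right, red) in silica rats at an adjusted p under 0.05, ordered by the list's median change. The dashed lines mark the share of all 9078 genes, 14.2% lower and 11.7% higher. Chemokines, complement and MHC class II lie at the top, and endothelial and cytotoxic cell markers near the bottom.

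The largest fall of all named genes was in the circadian clock. Nr1d1, the repressor REV-ERB alpha, lay at 6.44, 7.39 and 8.81 in silica rats and 9.30, 9.66 and 10.07 in air rats, a change of -2.24 ± 0.33, or 4.73-fold lower (adjusted p = 3.80e-06). Every silica rat was below every air rat, and the silica rats spread more widely than the air rats. Of 12 tested clock genes 4 were higher and 2 lower. Cry1, a repressor of the core loop, lay at 9.13, 9.52 and 9.79 in silica rats against 8.57, 8.82 and 9.08 in air rats (change 0.67 ± 0.10, adjusted p = 8.11e-06), and Nfil3 and Npas2, which Nr1d1 is known to repress in mice, rose by 0.47 and 0.30. The repressor Bhlhe40 rose by 0.39 and the output factor Tef fell by 0.60. Per2 and Dbp changed by -0.16 ± 0.14 (adjusted p = 0.442) and 0.03 ± 0.07 (adjusted p = 0.801). The labels give no hour of the day at which lungs were taken, so a difference in hour and an effect of silica cannot be told apart for these genes.

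Dlk1, a Notch-related protein of immature cells, was detected in none of the 6 silica rats and in all 6 air rats. It lay at 4.39, 4.48 and 4.56 in silica rats against 6.07, 6.29 and 6.42 in air rats and was at least 3.06-fold lower (adjusted p = 3.93e-12). Ralyl, an RNA-binding protein, showed the same pattern and was at least 1.39-fold lower (adjusted p = 1.03e-07). Alox15, a lipoxygenase that makes mediators from fatty acids, lay at 7.80, 8.13 and 8.27 in silica rats and 8.65, 9.06 and 9.19 in air rats (change -0.87 ± 0.11, adjusted p = 6.23e-07). In the eicosanoid list, 5 were higher and 1, Alox15, lower of 19 tested; thromboxane synthase (Tbxas1) and leukotriene A4 hydrolase (Lta4h) rose by 0.52 and 0.29. The rest of the 20 largest falls without overlap lay between -0.63 ± 0.12 for Dlc1, a GTPase-activating tumour suppressor, and -0.54 ± 0.07 for the nucleoside transporter Slc29a1. They included 2 regulators of G-protein signalling, Rgs7 (fell by 0.60) and Rgs12 (fell by 0.60), the transcription factors Pou2f3 of tuft cells (fell by 0.60) and Ascl2 (fell by 0.55), the reductase Akr1c19 (fell by 0.58), the phosphodiesterase Pde2a (fell by 0.57), the actin-bundling Vil1 (fell by 0.57) and the microtubule protein Map4 (fell by 0.55). Pdia2, Acoxl, Fn3k, Galnt18 and Sez6 fell by 0.57, 0.56, 0.56, 0.56 and 0.54. A further pair of genes was detected in all silica rats and in no air rat: Acbd7 and the transcription factor Sp5, at least 1.31-fold and 1.25-fold higher.

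Whether the effect at 12 weeks differed from that at 3 or 6 weeks was tested on the difference itself, each week against its own air rats. At 3 weeks 682 genes (7.51%) were higher and 552 (6.08%) lower in silica rats, and at 6 weeks 799 (8.8%) and 772 (8.5%). Against 3 weeks, 139 genes (1.53%) had a larger and 121 (1.33%) a smaller, or more negative, silica effect at 12 weeks. Of the 139, 100 were called higher at 12 weeks, 72 of these with no call at 3 weeks; of the 121, 97 were called lower at 12 weeks, 91 with no call at 3 weeks. Without silica replicate 3 the counts were 72 and 48, and without that array and air replicate 5 of 3 weeks they were 29 and 14. The total of 260 genes was sensitive to single rats of 12 weeks: it was 69, 120, 460 and 445 without silica replicate 2, 3, 4 or 5, and 128, 105, 115, 145 and 148 without air replicate 1, 3, 4, 5 or 6. Against 6 weeks, Lpo alone passed in limma (1 above 0, 0.011%, and 0 below it), while 1165 genes had an unadjusted p under 0.05; the total was 8, 21 or 16 without silica replicate 3, 4 or 5, and 2 without silica replicate 6 or air replicate 2 or 3. All 36 arrays enter these tests, but the 12 arrays of 6 weeks stand apart from most others, and week of exposure and any handling that went with 1 week cannot be told apart except as far as the air rats of the same week share it.

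The Lpo effect was 0.16 at 3 weeks, 0.16 at 6 weeks and 1.72 ± 0.17 at 12 weeks, a difference of 1.56 between 12 and 3 weeks (adjusted p = 0.00151) and of 1.56 between 12 and 6 weeks (adjusted p = 0.00155). The Spp1 effects were 0.46, 1.06 and 2.53 ± 0.40 at 3, 6 and 12 weeks, a difference of 2.07 to 3 weeks (adjusted p = 0.0437, and without both arrays that stand apart a difference of 2.33 with adjusted p = 0.0567). For Cxcl10 the effects were -0.19, -0.07 and 1.05 ± 0.20 (difference to 3 weeks 1.24, adjusted p = 0.0207), and for Cxcl11 0.69, 0.64 and 1.88 ± 0.23 (difference 1.19, adjusted p = 0.0395). Mmp7 and Orm1 differed from 3 weeks by 0.93 (adjusted p = 0.015) and 0.73 (adjusted p = 0.0273). Lpo, Cxcl10, Cxcl11, Mmp7 and Orm1 also passed without both arrays, and as Lpo, Mmp7, Orm1 and Cxcl6 were undetected in the air rats of 12 weeks their effects are fitted values, not bounds. The Slc26a4 effect was 2.36, 3.44 and 3.08 ± 0.32 at 3, 6 and 12 weeks, and its difference to 3 weeks did not pass (adjusted p = 0.351). Cxcl6 had its highest mean effect at 6 weeks, 3.52, with 1.39 at 3 and 2.42 ± 0.19 at 12 weeks (difference between 12 and 3 weeks 1.03, adjusted p = 0.0395, and 0.85 with adjusted p = 0.0698 without silica replicate 3). Rftn1, Cyp26b1 and Csnk1g2 differed from 3 weeks by 1.11, 1.09 and 1.01. Without both arrays they differed by 0.74, 0.88 and 0.61, where none of the 3 passed (adjusted p = 0.0578, 0.0724 and 0.0758). Cyp26b1 and Csnk1g2 were lower in silica rats at 3 weeks, with effects of -0.61 and -0.60 (adjusted p = 0.0234 and 0.0333). At 12 weeks their effects were 0.48 ± 0.18 and 0.40 ± 0.19 and did not pass (adjusted p = 0.0533 and 0.129).

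Among effects that were lower at 12 weeks, Dmkn, a secreted keratinocyte protein, had an effect of 1.18 at 3 weeks, 0.27 at 6 and 0.32 ± 0.10 at 12 (difference to 3 weeks -0.86, adjusted p = 0.00322); at 12 weeks it was detected in 3 silica rats and in no air rat, so these are fitted values. Klk6, a serine protease, had effects of 0.88, -0.54 and -0.69 ± 0.25 (difference -1.56, adjusted p = 0.0218), and Krt15, a basal keratin, of 0.75, -0.03 and -0.15 ± 0.17 (difference -0.90, adjusted p = 0.0395). Dlk1 and Ly49s4, already described, differed by -0.78 (adjusted p = 0.0237) and -0.70 (adjusted p = 0.0165). Akr1c3, Cnn1 and Ephx4 differed by -1.27, -0.71 and -0.70. The change of Akr1c3 at 12 weeks was -1.04 ± 0.22 (adjusted p = 6.2e-04), with overlap between the groups, so it is not among the falls above. At 12 weeks Dlk1 was detected in no silica rat and Akr1c3 in 2 of them, against all 6 air rats for both, so these differences are also fitted values. Of these 8 genes, Dmkn and Ly49s4 passed without both arrays that stand apart. Without those arrays the differences that did not pass were -1.41 for Klk6, -0.76 for Krt15, -0.72 for Dlk1, -1.13 for Akr1c3, -0.58 for Cnn1 and -0.58 for Ephx4.

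**Figure D5:**
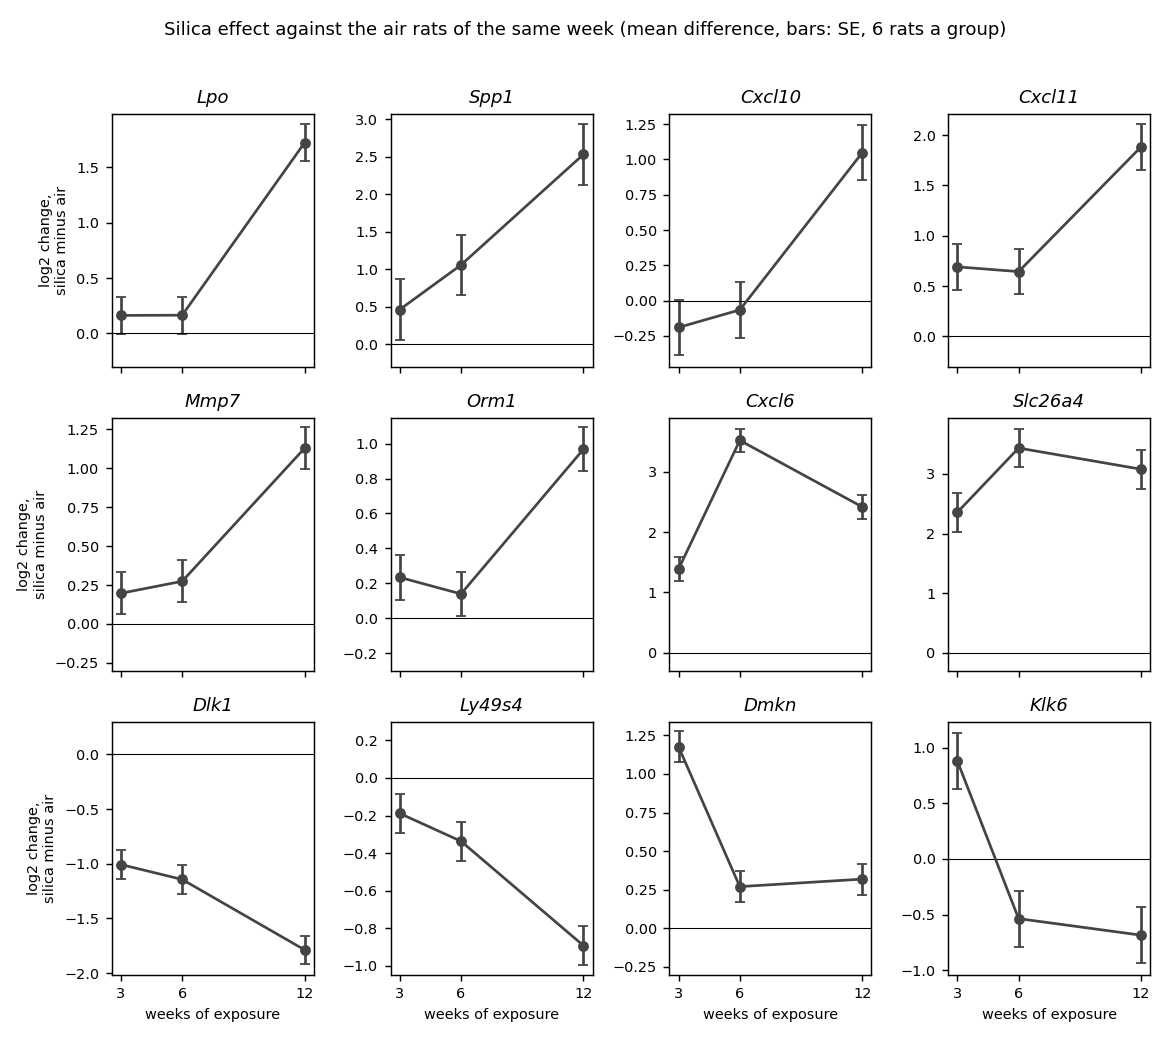
Silica effect (log2, silica minus the air rats of the same week) of 12 genes at 3, 6 and 12 weeks of exposure; points are mean differences and bars the standard error of the fit (6 rats a group). Lpo, Cxcl10, Cxcl11, Mmp7 and Orm1 have their highest effect at 12 weeks, Cxcl6 and Slc26a4 at 6 weeks, and Dmkn and Klk6 at 3 weeks.

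Of the 1061 genes higher at 12 weeks, 443 were also called higher at 3 weeks (41.75% of the list at 12 weeks and 64.96% of that at 3 weeks) and 580 at 6 weeks (54.67% and 72.59%). Of the 1289 lower genes, 260 were called lower at 3 weeks (20.17% and 47.1%) and 457 at 6 weeks (35.45% and 59.2%). Calls in opposite directions were 10 between 12 and 3 weeks and 3 between 12 and 6 weeks. The 3 comparisons share no rats, but they share the normalisation, the fit and its estimate of the spread of each gene. Their calls are therefore not independent.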

How the data were processed

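Lung RNA of 36 rats was measured on 36 Illumina rat BeadChips, 12 of them described here. The deposited intensity values are mean bead intensities per probe, not normalised, and the deposited detection p-value of each probe compares it with the negative controls of its array, per the file headers. The deposited log2 table holds the authors' processed values of the same arrays, with transformation and background step not stated; BeadStudio, lumi and limma are named in the submitters' processing notes without versions, and the genome build is not given in the sources used here.

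Background was estimated by the normexp method from the detection p-values of the 21204 probes whose values lie on the grid of 825 negative controls, an offset of 16 was added, and arrays were quantile normalised and log2 transformed (limma 3.58.1, R 4.3.3). The 588 other probes were treated with the same background. Probes detected at p under 0.05 on at least 6 of 36 arrays were kept, and the probe with the highest mean stood for its gene: 9078 genes were tested. Symbols came from the platform annotation, updated through RefSeq's gene table (assembly GRCr8); 13388 of 21792 probes had 1 symbol, none had several, and 3525 detected probes had no symbol and were counted only. A single fit with 6 group means (30 residual degrees of freedom) gave the contrasts, with Benjamini-Hochberg adjustment over all genes. The code was tested on simulated data.

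A gene undetected on all 6 arrays of a group was given a bound, the mean of the other group against the higher of its own level and the lowest detected level of each array. The bound holds for this background step and offset only. Named were the 25 largest rises and 20 largest falls without overlap, the larger called members and the defining members of each gene list, the 8 largest differences between 12 and 3 weeks in each direction, and genes detected in all rats of 1 group only; a few smaller members of the lists were chosen after their values were seen. Members and lists were chosen with earlier results of these data known, and lists share genes. Replicate numbers did not pair rats: 1 of 6 numbers correlated above 0.1 between silica and air rats in deviation from the group means. The alternatives were other background, scaling, offset, filter, values, arrays, array weights, a replicate block and leaving out each array; their effects are given at the end. The number of arrays limits the precision: the median standard error of a log2 change was 0.07.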

Additional observations from a re-analysis of the deposited data

Results flagged for a closer look

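In 35 of the groups of 6 values of a named gene, and on 2 principal component axes, 37 of 480 groups tested, the highest or the lowest rat lay apart from the other 5, by a gap of more than 0.625 of the group's whole range. Chance gives about 1 in 20 such groups. On the first axis of all 36 arrays silica replicate 3 lay at 15.11, and on the second axis air replicate 3 lay at -10.44. Silica replicate 2 was the far rat for Ciita (log2 level 6.36). Silica replicate 3 was the far rat for Cd74 (log2 level 11.49), Cfp (log2 level 8.83), Csnk1g2 (log2 level 7.74), Gzmb (log2 level 7.35), Igtp (log2 level 6.71), Nkx2-1 (log2 level 6.98), RT1-DMa (log2 level 9.72), Scarb2 (log2 level 9.86), Sftpb (log2 level 13.70), Sftpc (log2 level 13.42), Thbd (log2 level 11.14) and Usp18 (log2 level 6.16). Silica replicate 5 was the far rat for Clec10a (log2 level 9.04), Cxcl1 (log2 level 11.25), Cxcl2 (log2 level 6.58), Gp9 (log2 level 5.79) and Retnlg (log2 level 10.60). Silica replicate 6 was the far rat for Acoxl (log2 level 6.58), Aqp5 (log2 level 10.97) and Myh6 (log2 level 9.33). Air replicate 1 was the far rat for C1qb (log2 level 10.06), Cxcl10 (log2 level 5.91) and Fabp4 (log2 level 8.22). Air replicate 2 was the far rat for Cxcl11 (log2 level 5.42), Mvd (log2 level 8.36), Scgb1a1 (log2 level 14.38) and Sparc (log2 level 12.52). Air replicate 3 was the far rat for Cthrc1 (log2 level 7.25), Lgmn (log2 level 10.01), Mmp12 (log2 level 6.60) and Slpi (log2 level 10.54). Air replicate 4 was the far rat for Il1rn (log2 level 5.37) and Timp1 (log2 level 11.02). Air replicate 5 was the far rat for Dmkn (log2 level 4.79).

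The silica effect of 47 named genes differed between 12 and 3 weeks in limma's test of the difference, whose adjusted p lay between 0.00151 and 0.0443. It was higher at 12 weeks, in log2 units, for Bhlhe40 (0.42), Cd14 (0.43), Ceacam4 (0.63), Cebpa (0.82), Clec10a (0.30), Csnk1g2 (1.01), Cx3cl1 (0.64), Cxadrl1 (0.75), Cxcl10 (1.24), Cxcl11 (1.19), Cxcl6 (1.03), Cyp26b1 (1.09), Gch1 (0.58), Igtp (0.99), Il1rn (0.66), Lpo (1.56), Mmp7 (0.93), Ncf4 (0.47), Npas2 (0.37), Orm1 (0.73), Pigr (0.61), RT1-Ba (0.45), RT1-Da (0.19), RT1-Db1 (0.66), Rftn1 (1.11), Rrm2 (0.51), Slc16a3 (0.45), Sod2 (0.52) and Spp1 (2.07). It was lower at 12 weeks for Akr1c19 (-0.39), Akr1c3 (-1.27), Aplnr (-0.34), Ccnd1 (-0.27), Cfp (-0.33), Clic5 (-0.27), Cnn1 (-0.71), Col6a1 (-0.32), Cspg4 (-0.40), Dlk1 (-0.78), Dmkn (-0.86), Ephx4 (-0.70), Fn3k (-0.60), Klk6 (-1.56), Krt15 (-0.90), Ly49s4 (-0.70), Ralyl (-0.40) and Slc29a1 (-0.39). For Lpo it also differed between 12 and 6 weeks, by 1.56 (adjusted p = 0.00155). Without both arrays that stand apart, 25 of the 139 genes above 0 and 13 of the 121 below it kept the call over all tested genes.

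Probes that carry no gene symbol were left out of the comparisons above. Of 3525 such detected probes, 228 were called higher and 310 lower in silica rats, of which 50 and 8 changed by at least 1.5-fold.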

How the results depend on the processing

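Of 236 named genes, 214 were called at 12 weeks. Over 23 alternative settings, 196 of these called genes kept their direction and their call, and no called gene changed direction. Of the 22 named genes that were not called, 10 changed sign under at least 1 setting and 4 passed under at least 1; of 5424 single values 5331 agreed in call, 73 lost it and 20 gained it. Calls lost under at least 1 setting were those of Alas2, Ccn2, Cnn1, Cthrc1, Des, Dmkn, Gstp1, Igtp, Klk6, Lamc1, Nqo1, Plin2, Retnlg, Rftn1, Tef, Tekt2, Timp1 and Usp18, and calls gained were those of Ccl20, Cyp26b1, Scgb1a1 and Tgfb1; the causes were not tested. The count of genes higher in silica rats was 604 with arrays scaled to their medians. Median scaling lowered the higher counts of many gene lists, and only some are given with the list. IL-1, TNF and NF-kB signalling then held 12 higher of 29, other chemokines 12 of 29 and complement 9 of 17. NADPH oxidases held 7 of 17, surfactant 10 of 18 and ion transport 7 of 23. Interstitial matrix held 13 lower of 43 and type I pneumocytes 7 of 20. Estimating the background on all probes shrank the medians of several lists. The median was then 0.11 for monocytes and dendritic cells, 0.05 for IL-1, TNF and NF-kB signalling, 0.09 for secreted defence proteins and 0.06 for NADPH oxidases. The authors' values gave 0.17, 0.11, 0.15 and 0.15 for these lists. Medians of MHC class II and endothelial markers did not shrink with all probes (0.49 and -0.30). Genes higher by at least 1.5-fold numbered 92 with background from all probes, 96 with no background correction and 73 in the authors' processed values. Genes lower by at least 1.5-fold numbered 5 with no background correction, 42 with median scaling, 6 with an offset of 50 and 3 in the authors' processed values. Genes whose silica effect differed between 12 and 3 weeks numbered 158 with median scaling, 150 with no filter on dim probes, 121 with array weights and 43 without both arrays that stand apart, an alternative chosen after seeing the data. Between 12 and 6 weeks the counts were 27 with background from all probes, 2 with no background correction or with median scaling, 5 with an offset of 50, 9 in the authors' values, 47 with array weights and 26 without both arrays. Leaving out 1 array of 12 weeks at a time gave 864 to 1093 higher and 1017 to 1360 lower genes, 125 to 169 and 10 to 26 by at least 1.5-fold, 69 to 460 that differed from 3 weeks and 1 to 21 that differed from 6 weeks. With the replicate number as a block, which does not pair these rats, the counts were 1058 higher, 1286 lower, 145 and 17 by at least 1.5-fold, and 266 and 1 for the differences to 3 and 6 weeks. 2 of 6 silica rats correlated best with the air rat of the same number.

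Genes near the background of the arrays carry bounds or small fitted changes. The counts past 1.5-fold moved with the background step, while no called gene that the text names changed direction under it. The bounds hold for the main setting only. Over the alternative settings the log2 change smallest in size was 0.43 for Cxcl6, 0.24 for Lpo and 0.12 for Mmp7. It was 0.10 for Orm1 and -0.21 for Dlk1. The labels give no chip or day, so array batches could not be tested as a term, and 12 arrays of 1 exposure time stand apart from most others.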

Other observations

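Of 13 tested genes of red cells and platelets 3 were lower in silica rats and 1, the chemokine Pf4, was higher. Over all tested genes 14.2% were lower and 11.7% higher. Hbb-b1, a beta chain of haemoglobin, lay at 12.58, 12.84 and 12.96 in silica rats (lowest, median, highest) and at 12.90, 13.21 and 13.54 in air rats, a change of -0.40 ± 0.09 (limma, adjusted p = 0.00161). Alas2, the enzyme of haem synthesis in red cell precursors, changed by -0.38 ± 0.12 (adjusted p = 0.0222), and Gp9, a subunit of the platelet receptor for von Willebrand factor, by -0.42 ± 0.09 (adjusted p = 6.88e-04). Haemoglobin genes have near-identical copies, which a probe may not separate. How much blood the sampled lungs held was not recorded in the labels, and its part in these values was not tested.

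Of 18 tested fibroblast markers 2 were higher and 5 lower, median -0.09. Without silica replicate 3, 7 were lower and the median was -0.14. The extracellular peptidase Dpep1 and Ltbp4, which binds latent TGF-beta, fell by 0.26 and 0.24. Plin2, the coat protein of lipid droplets, which macrophages also carry, rose by 0.23. Of 15 tested ciliated cell markers Tppp3, a tubulin-binding protein, fell by 0.39 and Tekt2, a protein of the axoneme, rose by 0.33. Their list's mean level ranged from 7.39 to 7.96 in silica rats and from 7.76 to 8.20 in air rats.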
